A study of Mus musculus with 24 samples.

Results

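The 10 mature miRNAs described here are both arms of 5 mouse hairpins, miR-470, miR-463, miR-471, miR-201 and miR-547. They were chosen by name as testis-enriched hairpins of the X-linked miR-506 family, and all 10 were among the 1978 mature miRNAs of the count table. The 24 small RNA libraries came from C57BL/6J males aged 10-15 weeks that were Ago413+/+, Ago413+/- or Ago413-/-, 4 libraries of enriched pachytene/diplotene spermatocytes and 4 of enriched round spermatids per genotype. The Ago413 allele is a constitutive deletion that removes all of Ago1 and part of Ago3 and Ago4, neighbouring genes for Argonaute proteins that bind miRNAs, and Ago2, which lies on another chromosome, is not part of it. Each cell suspension came from the pooled testes of 2-5 mice, and the cells were enriched by sedimentation through a BSA gradient to a purity above 70%, so that other testis cells remained in the fractions. miRNA counts hold no Ago mRNA, and the genotype labels were not checked against the deleted genes.

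A miRNA hairpin is cut into a short duplex, and the name of a mature miRNA ends in 5p or 3p after the arm it comes from. An Argonaute protein keeps one strand of the duplex, and bases 2 to 8 of that strand, the seed, pair with target mRNAs. The miR-506 family lies in clusters on the mouse X chromosome, is largely expressed in male germ cells and is known for rapid change of sequence in evolution. Many of its members are known to be present in spermatocytes although most genes of the X chromosome are silenced there in meiosis.

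The 10 mature sequences are given because the seeds, and the base composition that differs between the arms, bear on the values that follow. They are those of RefSeq on GRCm38.p6, 5′ to 3′, with the seed in capitals.
mmu-miR-470-5p: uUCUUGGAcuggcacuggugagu
mmu-miR-470-3p: aACCAGUAccuuucugagaaga
mmu-miR-463-5p: uACCUAAUuuguuguccaucau
mmu-miR-463-3p: uGAUAGACaccauauaagguag
mmu-miR-471-5p: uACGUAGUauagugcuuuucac
mmu-miR-471-3p: uGAAAGGUgccauacuauguau
mmu-miR-201-5p: uACUCAGUaaggcauuguucuu
mmu-miR-201-3p: uGAACAGUgccuuucuguguagg
mmu-miR-547-5p: cACUUGAGgauguaccaccca
mmu-miR-547-3p: cUUGGUACaucuuugagugag

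No 2 of these miRNAs shared a seed, and no other mature mouse miRNA with a sequence in the same annotation had any of the 10 seeds. Only 373 of the 450 miRNAs in the fit of 24 libraries had a sequence there, so that the rest were not compared. The nearest other mature miRNA with a sequence differed by 5 bases from miR-471-3p and from miR-201-3p and by 6 to 9 bases from the other members. The share of G and C ran from 31.8% in miR-463-5p to 52.2% in miR-470-5p and 52.4% in miR-547-5p, and was 36.4% in miR-463-3p, both arms of miR-471 and miR-201-5p. The median over the miRNAs kept in the analysis was 45.8%, with miR-470-3p at 40.9%, miR-547-3p at 42.9% and miR-201-3p at 47.8%.

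All 5 hairpins lie on the minus strand of chromosome X (GRCm38.p6). Mir471 is at chrX:66792595-66792661, Mir463 at chrX:66799223-66799297 and Mir470 at chrX:66813951-66814025, with 6561 bases between the first pair and 14653 bases between the second. Mir201, at chrX:67988096-67988161, and Mir547, at chrX:67988374-67988451, lie 212 bases apart and 1174070 bases beyond Mir470. None of the 5 overlaps another annotated gene, coding or not, so that they are intergenic. The nearest coding genes are Slitrk2 and Gm1140 around the first group, and 4933436I01Rik and Fmr1 around Mir201 and Mir547. Within 200 kb of the 5 hairpins the annotation holds 22 miRNA hairpins, all on the minus strand.

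**Figure D1:**
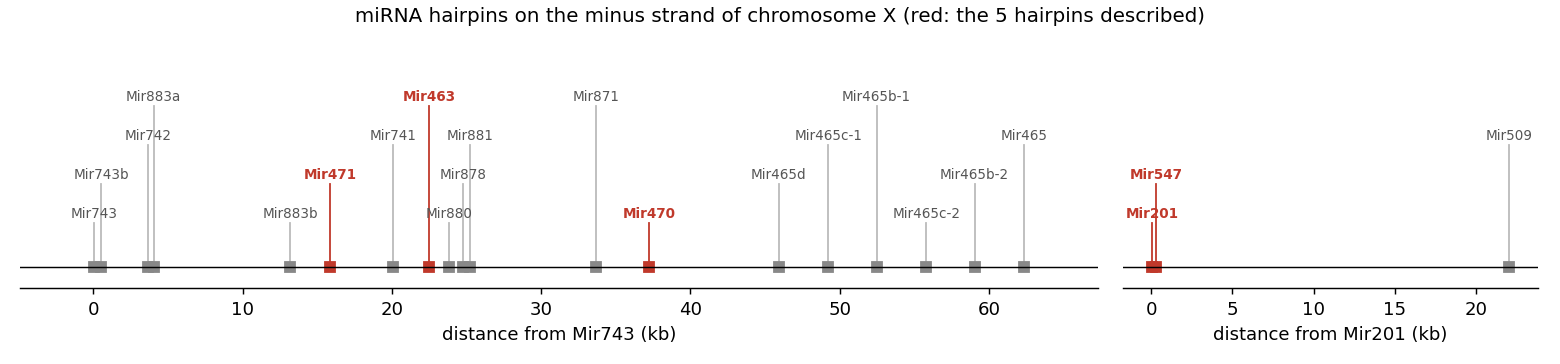
Position of the 22 annotated miRNA hairpins on the minus strand of chromosome X around the 5 described hairpins (red), as distance in kb from Mir743 (left) and from Mir201 (right). Mir471, Mir463 and Mir470 stand among other family hairpins, while Mir201 and Mir547 lie side by side in a second group with Mir509.

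Of the 10 miRNAs, 9 passed the filter on low values, which asks for 10 counts or more in 3 of the libraries, in each cell type. miR-547-5p had 77 counts over 24 libraries and never more than 11 in one, and was not tested. Library totals ran from 182904 to 1072637 counts, and the smallest was Ago413-/- spermatocytes replicate 2. A mature count of 0 there allows a level of up to 20.6 CPM (counts scaled to a common library size). Levels below are CPM normalised by TMM within a cell type, each given as mean ± SD of 4 libraries. A fold change is from the quasi-likelihood test of edgeR over all miRNAs of a cell type, and a miRNA is said to have changed where its log2 fold change was 1 or more in either direction and its Benjamini-Hochberg adjusted p was below 0.05. The labels do not say which libraries shared animals, so that p-values measure the spread between these libraries.

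The 10 miRNAs spanned more than 3 orders of magnitude, and each gave its 2 arms in a different proportion. mmu-miR-470-5p was the most abundant, with 291623 counts over 24 libraries, 69.2% of those of the 10 miRNAs and rank 12 among all miRNAs. In Ago413+/+ it stood at 17452 ± 4783 CPM in spermatocytes and at 24129 ± 8176 CPM in round spermatids. miR-547-3p followed, at 5445 ± 2314 and 4590 ± 1050 CPM, and then miR-471-5p, at 1650 ± 225 and 1276 ± 231 CPM. In spermatocytes these 3 did not overlap with one another or with miR-471-3p below them, at 894 ± 223 CPM. The next pair, miR-463-5p at 611 ± 141 CPM and miR-201-5p at 556 ± 213 CPM, exchanged places between libraries, with miR-463-5p higher in 2 of 4 Ago413+/+ libraries of each cell type. miR-463-3p at 259 ± 51 CPM, miR-470-3p at 71.1 ± 13.1 CPM, miR-201-3p at 20.9 ± 6.4 CPM and miR-547-5p at 7.06 ± 2.85 CPM closed the order in spermatocytes, each above the next in 4 of 4 libraries. In round spermatids of Ago413+/+ the order of the 10 was the same by mean, with overlap between the ranges of miR-471-5p and miR-471-3p.

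**Figure D2:**
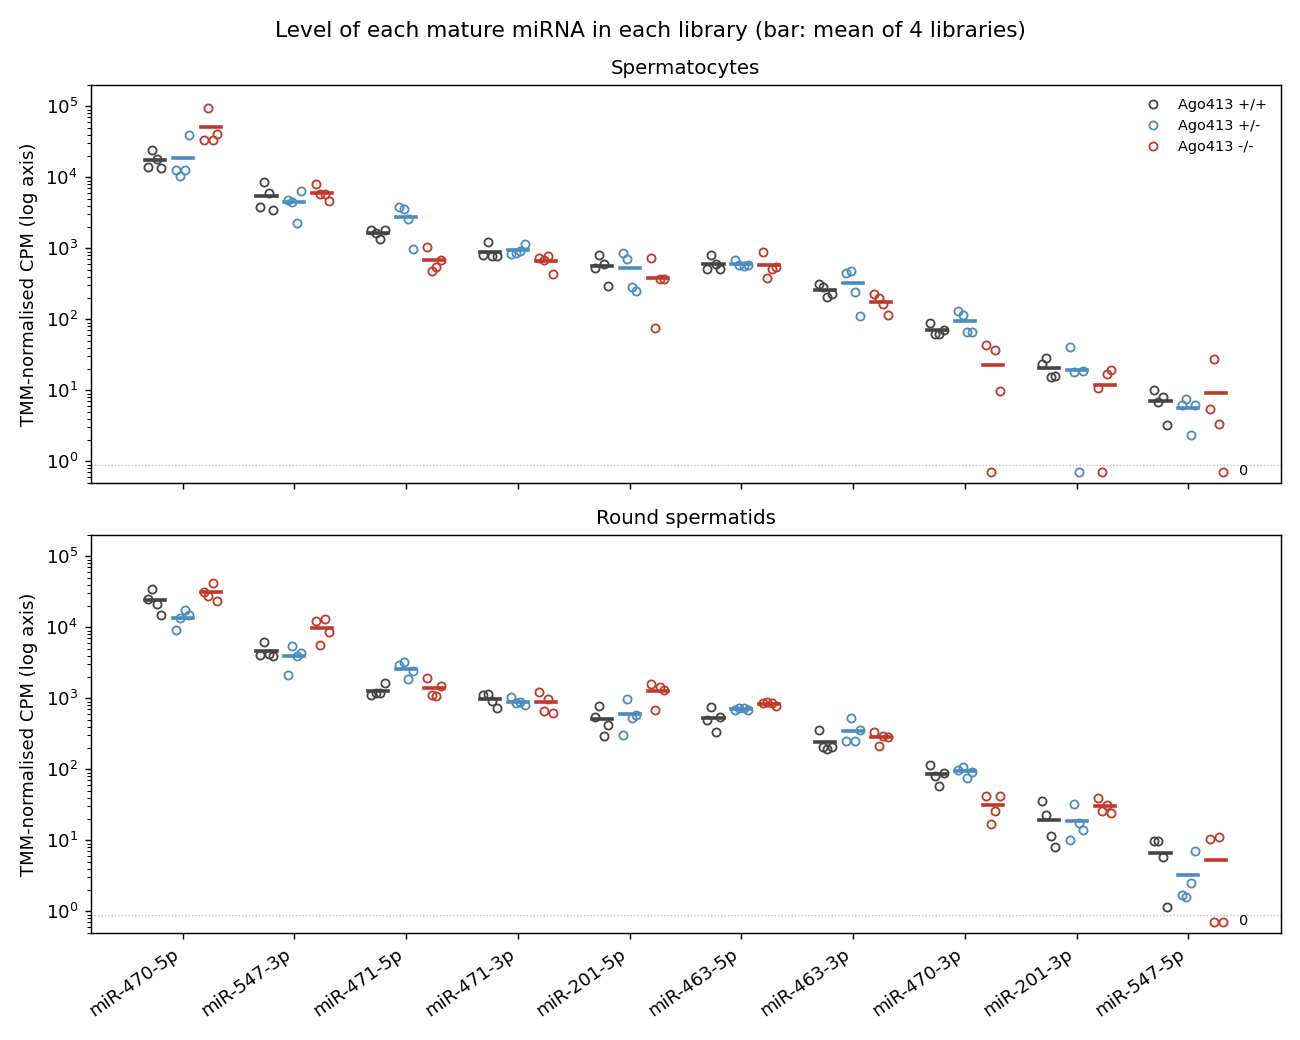
TMM-normalised CPM on a log axis of the 10 miRNAs (most abundant at the left) in the 4 libraries of each genotype, for spermatocytes (top) and round spermatids (bottom); bars are means, and points under the dotted line are libraries with 0 counts. miR-470-5p tops every group, and miR-470-3p of Ago413-/- lies below the other genotypes in both cell types.

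Together the 10 miRNAs held 2.88% ± 0.79 of all counts in Ago413+/+ spermatocytes and 3.40% ± 1.02 in round spermatids (SD, n = 4), where 30 other miRNAs of the family held 26.8% ± 1.7 and 27.9% ± 0.3. Round spermatids were higher by 0.52 percentage points, which was within the spread (exact permutation test, two-sided, p = 0.486). For single miRNAs, none of the 9 tested differed between spermatocytes and round spermatids of Ago413+/+; the background was also 0.0% of 450 miRNAs, with 10 at an unadjusted p under 0.05. The largest of these 9 differences was that of miR-470-5p, a log2 fold change of 0.56 (SE 0.39, edgeR adjusted p = 0.996). Within Ago413+/+, then, no miRNA tested passed between the labelled cell types.

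Among the 5 hairpins, the balance of the arms differed most between Ago413-/- and Ago413+/+ in miR-470. Changes of arm ratio were frequent among all hairpins, and the adjusted exact p of miR-470 did not pass (below). miR-470-3p, the minor arm, was lower in Ago413-/- than in Ago413+/+ in both cell types, while the means of miR-470-5p were higher. In round spermatids miR-470-3p read 115, 81.6, 57.7 and 88.96 CPM in the 4 Ago413+/+ libraries, 98.6, 108, 74.9 and 92.7 CPM in Ago413+/-, and 41.8, 17.1, 26.2 and 42.2 CPM in Ago413-/-. No Ago413-/- library reached the lowest Ago413+/+ or Ago413+/- library. The log2 fold change was -1.42 (SE 0.32, edgeR adjusted p = 0.00679). In spermatocytes the values were 89.6, 61.8, 62.0 and 71.1 CPM in Ago413+/+, 130, 113, 65.8 and 65.8 CPM in Ago413+/-, and 43.2, 0, 37.5 and 9.73 CPM in Ago413-/-. Again all 4 Ago413-/- libraries lay below the rest, but these rest on 16, 0, 11 and 2 counts, and the log2 fold change of -1.48 (SE 0.57) did not pass (edgeR adjusted p = 0.103).

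miR-470-5p, the major arm, read 14023, 23978, 18082 and 13725 CPM in Ago413+/+ spermatocytes, 12801, 10296, 12719 and 39605 CPM in Ago413+/-, and 33657, 95162, 33971 and 40859 CPM in Ago413-/-. The 4 Ago413-/- libraries were above the 4 Ago413+/+ libraries, and 1 Ago413+/- library lay among them. The log2 fold change of Ago413-/- was 1.54 (SE 0.46, edgeR adjusted p = 0.0693), and without Ago413-/- replicate 2, the smallest library, it was 1.05 (adjusted p = 0.145). In that library miR-470-5p was the most abundant of all miRNAs, with 13882 of 182904 counts. In round spermatids miR-470-5p read 25031, 34741, 21597 and 15146 CPM in Ago413+/+ and 31822, 27873, 41937 and 23387 CPM in Ago413-/-, ranges that overlap (log2 fold change 0.37, SE 0.26, adjusted p = 0.318).

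The ratio of the arms within a library does not depend on how libraries are scaled to one another. It is given as log2 of 5p over 3p counts, with 0.5 added to each, and was compared by an exact two-sided permutation test whose p cannot go below 0.0286 with 4 libraries in each group. For miR-470 the ratio rose in Ago413-/- from 7.90 ± 0.59 to 11.45 ± 2.41 in spermatocytes, a difference of 3.55 (exact p = 0.0286), and from 8.10 ± 0.62 to 9.95 ± 0.76 in round spermatids, a difference of 1.84 (exact p = 0.0286). The 8 Ago413-/- libraries ran from 9.08 to 14.76 and the 8 Ago413+/+ libraries from 7.28 to 8.73, with no overlap in either cell type. As a share of the hairpin's counts, miR-470-3p fell from 0.437% ± 0.170 to 0.0655% ± 0.0631 in spermatocytes and from 0.385% ± 0.165 to 0.109% ± 0.058 in round spermatids. In Ago413+/- it was 0.694% ± 0.434 and 0.732% ± 0.274. The highest spermatocyte ratio belongs to Ago413-/- replicate 2, with 0 of 13882 counts on the 3p arm, which allows a share of up to 0.0216%, counting error only. Without that library the spermatocyte difference was 2.45. With 5 added to each count in place of 0.5, the differences were 2.30 in spermatocytes and 1.58 in round spermatids.

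Such changes of arm ratio were frequent in Ago413-/-. Among the hairpins whose arms together had 50 counts or more in each library, 16.1% of 87 in spermatocytes and 21.3% of 122 in round spermatids reached the same exact p, and 3.88% of 129 did so between the cell types in Ago413+/+. Of the 5 hairpins described, miR-470 alone reached that exact p in Ago413-/- of either cell type, and miR-201 was not tested in spermatocytes. By the size of its shift toward the 5p arm, miR-470 ranked 1 of 87 and 8 of 122, and 1 and 5 with 5 counts added. After adjustment over all hairpins the exact p was 0.178 in spermatocytes and 0.134 in round spermatids. With limma over all hairpins, an alternative chosen after seeing the data, the adjusted p was 0.0650 in spermatocytes, where no hairpin passed, and 0.0270 in round spermatids, where 10.7% of hairpins passed.

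**Figure D3:**
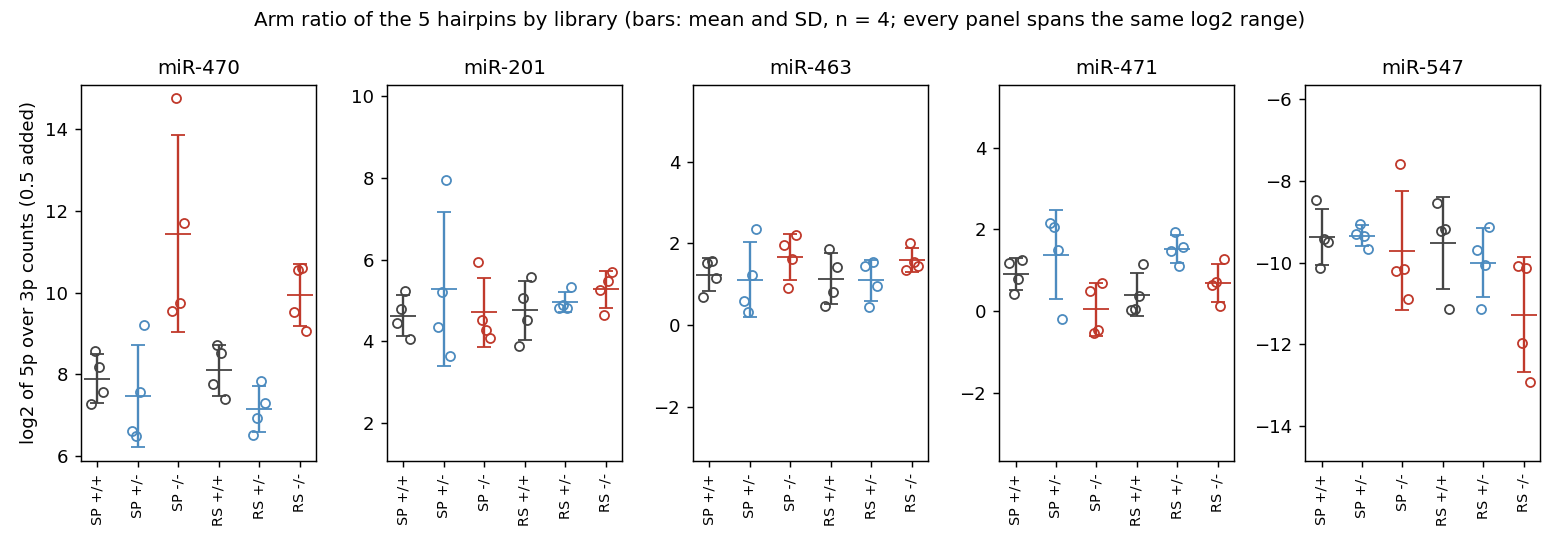
log2 of 5p over 3p counts (0.5 added to each) for the 5 hairpins in each library, with mean and SD of 4 libraries; SP, spermatocytes, RS, round spermatids, and every panel spans the same number of log2 units. In miR-470 the Ago413-/- libraries of both cell types lie above those of Ago413+/+, while in the other 4 hairpins the ranges overlap.

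None of the other 4 hairpins reached the smallest possible exact p in Ago413-/- where tested. miR-470 reached it, but did not pass once the exact p was adjusted over all hairpins. miR-463 had 30.1% ± 6.1 of its counts on the 3p arm in Ago413+/+ spermatocytes and 24.2% ± 7.4 in Ago413-/-, and its log2 ratio differed by 0.44 (exact p = 0.229) there and by 0.45 (exact p = 0.229) in round spermatids. miR-471 had 35.01% ± 6.08 of its counts on the 3p arm in Ago413+/+ spermatocytes and 49.4% ± 10.97 in Ago413-/-, a log2 ratio lower by 0.87 (difference -0.87, exact p = 0.0857). In round spermatids the miR-471 difference was 0.29 (exact p = 0.429). miR-547 had at least 99.5% of its counts on the 3p arm in every library, and its log2 ratio in round spermatids differed by -1.75 (exact p = 0.143), on no more than 11 counts of the 5p arm in a library. miR-201 differed by 0.51 (exact p = 0.257) in round spermatids and had too few counts for the test in spermatocytes.

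miR-201-5p and miR-547-3p, the major arms of the 2 hairpins that lie 212 bases apart, rose in Ago413-/- round spermatids. miR-547-3p read 4034, 6158, 4200 and 3967 CPM in Ago413+/+, 2099, 5475, 3969 and 4352 CPM in Ago413+/-, and 12207, 5731, 13045 and 8590 CPM in Ago413-/-. In Ago413-/-, 3 of 4 libraries were above all others, and replicate 2 lay within the Ago413+/+ range. The log2 fold change was 1.11 (SE 0.30, edgeR adjusted p = 0.0139). miR-201-5p read 543, 788, 294 and 418 CPM in Ago413+/+, 309, 979.5, 529.5 and 591.5 CPM in Ago413+/-, and 1571, 675, 1452 and 1313 CPM in Ago413-/-. The same 3 Ago413-/- libraries exceeded all others, and replicate 2 again lay within the Ago413+/+ range. Its log2 fold change was 1.29 (SE 0.37, adjusted p = 0.0185). The minor arm of the same hairpin, miR-201-3p, had a log2 fold change of 0.65 (SE 0.45, adjusted p = 0.313) on 9 to 23 counts in Ago413-/-.

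These 2 calls depended on the setting. Without Ago413+/+ replicate 1, Ago413+/+ replicate 4 or Ago413-/- replicate 1, neither passed, with miR-201-5p at 1.06 to 1.07 and miR-547-3p at 0.81 to 0.90, while miR-470-3p remained changed. With an offset that removes a trend with G and C content, added after seeing the data, the log2 fold changes became 0.84 for miR-201-5p (edgeR adjusted p = 0.108) and 0.88 for miR-547-3p (adjusted p = 0.0414), so that neither was called. Over all alternatives that tested it, miR-201-5p was called in 13 of 18, miR-547-3p in 8 of 18 and miR-470-3p in 17 of 17.

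In spermatocytes neither passed. miR-547-3p was at 5445 ± 2314 CPM in wild type spermatocytes and at 6084 ± 1377 CPM in those of Ago413-/- (log2 fold change 0.16, SE 0.36, edgeR adjusted p = 0.795), and miR-201-5p at 556 ± 213 and 388 ± 273 CPM (log2 fold change -0.51, SE 0.56, adjusted p = 0.623). The interaction of cell type and Ago413-/- did not pass for any of the 9 miRNAs (background 0.0% of 450, with 55 at an unadjusted p under 0.05). It was 1.66 for miR-201-5p (SE 0.69, unadjusted p = 0.0244), -1.32 for miR-470-5p (SE 0.55, unadjusted p = 0.0240) and 1.23 for miR-471-5p (SE 0.46, unadjusted p = 0.0122), each with an edgeR adjusted p of 0.381.

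Over all 9, Ago413-/- round spermatids had 2 that rose and 1 that fell, where 16.2% of 426 miRNAs changed, and the median log2 fold change was 0.37 against 0.13 over all miRNAs. Spermatocytes had 0 of 9, where 4.46% of 404 changed, with a median of -0.51 against -0.05; DESeq2 called 3 of 9 there, miR-470-5p and miR-470-3p and miR-471-5p, against 15.1% of all 404, and 3 of 9 were at an unadjusted edgeR p under 0.05, against 25.5% of all. The 2 genotypes did not overlap for 3 of 9 in spermatocytes (miR-470-5p, miR-470-3p and miR-471-5p; background 20.8%) and for 2 of 9 in round spermatids (miR-470-3p and miR-463-5p; background 24.4%). Of 26 other family members tested, 1 fell and none rose in either cell type, with medians of -0.34 in spermatocytes and -0.17 in round spermatids. Fewer cells of a type and less RNA per cell cannot be told apart in such bulk samples.

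**Figure D4:**
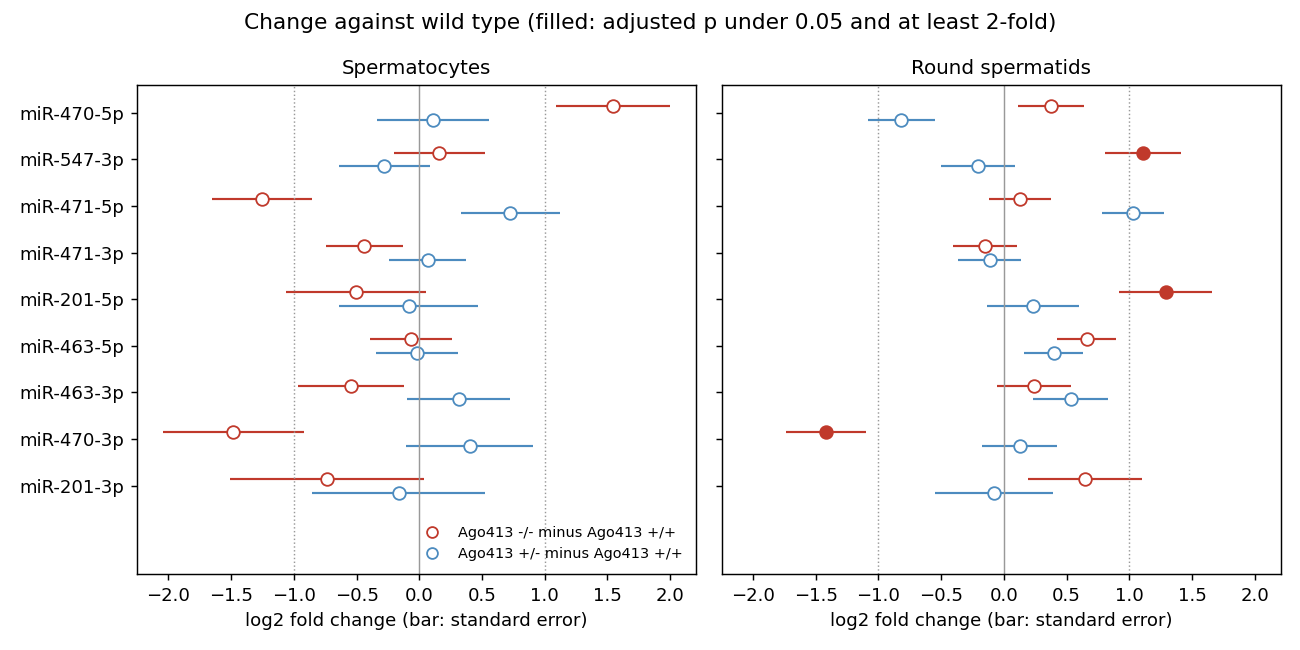
log2 fold change (with SE) against Ago413+/+ of the 9 miRNAs tested, in spermatocytes (left) and round spermatids (right), for Ago413-/- (red) and Ago413+/- (blue), filled where the miRNA changed. Filled points are found in Ago413-/- round spermatids, at 1.29 for miR-201-5p, 1.11 for miR-547-3p and -1.42 for miR-470-3p.

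In the round spermatid comparison the tested markers of blood and endothelium were higher in Ago413-/-, and those of peritubular cells were not. Of 3 blood miRNAs, 2 were tested (all but miR-144-3p, which failed the filter) and both rose in round spermatids of Ago413-/- (miR-451a by a log2 fold change of 3.26 and miR-486a-5p by 2.11, edgeR adjusted p = 0.0299 and 0.0305), and the summed level of the list ran from 48.0 to 427 CPM in Ago413+/+ and from 105 to 4959 CPM in Ago413-/-. Of the endothelial arms, miR-126a-3p rose (1.63, adjusted p = 0.0120) and miR-126a-5p read 1.48 (adjusted p = 0.0697), with summed levels of 435 to 1931 CPM in Ago413+/+ and 2011 to 6137 CPM in Ago413-/-. None of the 2 peritubular, 3 spermatogonial and 3 meiotic miRNAs changed, though miR-449a-5p (log2 fold change 0.98, edgeR adjusted p = 0.0110) and the spermatogonial miR-21a-5p (0.66, adjusted p = 0.0306) passed on adjusted p and missed the fold limit. The peritubular values were below 0, at -1.74 for miR-145a-5p (edgeR adjusted p = 0.204) and -0.14 for miR-143-3p. The other spermatogonial values were 0.85 for miR-221-3p and -0.42 for miR-222-3p. The meiotic list (miR-34b-5p, miR-34c-5p and miR-449a-5p) summed to 57500 to 105741 CPM and 72538 to 136888 CPM. The part of these cells in the rise of miR-201-5p and miR-547-3p was not tested.

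The base composition of the libraries varied too. In each library a slope was fitted to the log2 CPM of 338 miRNAs outside the family against their share of G and C, relative to the mean of the 24 libraries. It ran from -0.003 to 0.242 log2 units per 10 percentage points in Ago413+/+ round spermatids and from -0.132 to 0.003 in Ago413-/-. In Ago413+/- round spermatids it ran from -0.184 to 0.033. The slope reached 0.327 in Ago413-/- spermatocytes replicate 2, the highest of all. That library had the highest miR-470-5p of all and the lowest miR-471-5p and miR-201-5p. The offset on G and C content removes this trend. With it, miR-201-5p and miR-547-3p were not called in Ago413-/- round spermatids (values above), and miR-470-3p was at -1.70 (edgeR adjusted p = 0.00121). In spermatocytes miR-470-5p became 1.64 (adjusted p = 0.0427) and was called. The part of base composition in the differences between genotypes was not tested.

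**Figure D5:**
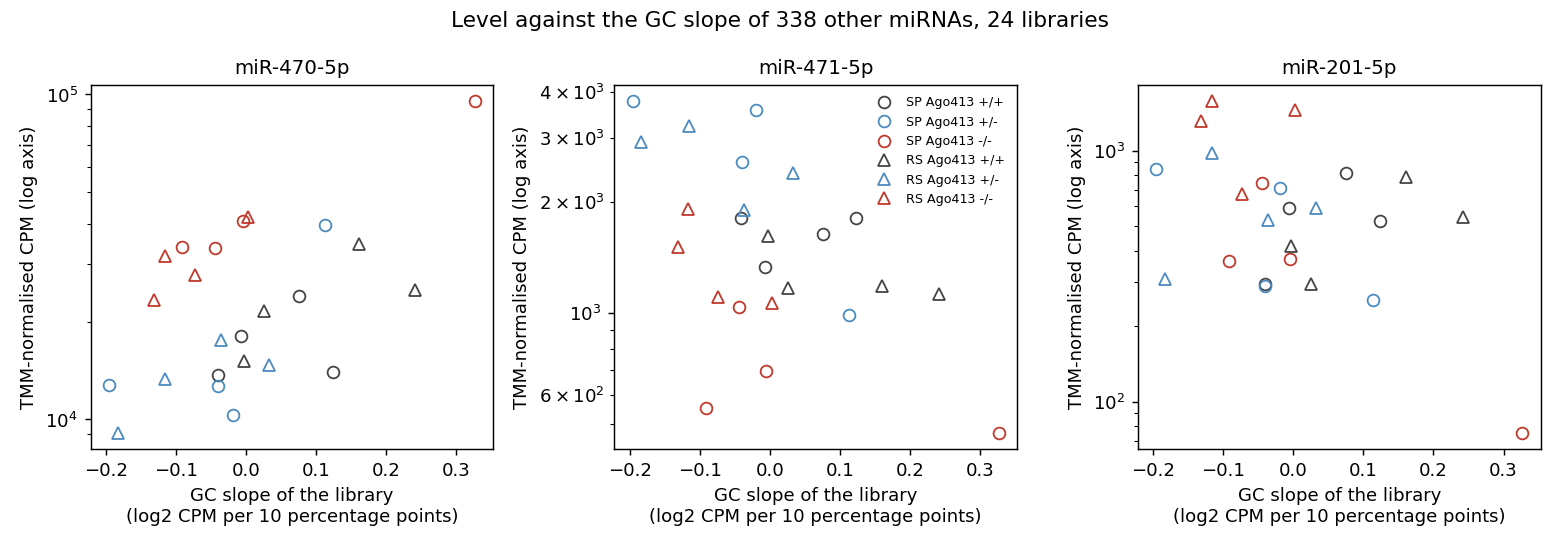
CPM (log axis, TMM within each cell type) of miR-470-5p, miR-471-5p and miR-201-5p in 24 libraries against the slope of log2 CPM on G and C content, per 10 percentage points, over 338 miRNAs outside the family. The rightmost point, at 0.327, is Ago413-/- spermatocytes replicate 2, which is at the top for miR-470-5p and at the bottom for the other two.

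Replicates 1 and 2 of Ago413+/+ and Ago413-/- carry lower library numbers than replicates 3 and 4. With a term for that split the log2 fold changes of miR-470-3p, miR-201-5p and miR-547-3p in Ago413-/- round spermatids were -1.41, 1.34 and 1.105. All 3 were called, where 14.6% of 426 miRNAs were called.

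miR-471-5p was lowest in Ago413-/- spermatocytes and highest in Ago413+/-. It read 1809, 1641, 1334 and 1815 CPM in Ago413+/+ spermatocytes, 3759, 3566, 2580 and 990 CPM in Ago413+/-, and 1042, 473, 552 and 695 CPM in Ago413-/-. The Ago413-/- libraries lay below all Ago413+/+ libraries, with a log2 fold change of -1.25 (SE 0.40) that did not pass (edgeR adjusted p = 0.0867). In round spermatids it read 1127, 1187, 1170 and 1621 CPM in Ago413+/+, 2910, 3223, 1901 and 2402 CPM in Ago413+/-, and 1913, 1109, 1064 and 1509 CPM in Ago413-/-. There Ago413+/- and Ago413+/+ did not overlap (log2 fold change 1.03, SE 0.25, edgeR adjusted p = 0.0617), while Ago413-/- overlapped with Ago413+/+ (log2 fold change 0.13, SE 0.25, adjusted p = 0.726). DESeq2 called the Ago413+/- difference, with an adjusted p of 0.0100, where it called 1.41% of 426 miRNAs. That was 1 of 18 alternatives, over which the adjusted p ran from 0.0100 to 0.295 and the log2 fold change from 0.76 (with the offset on G and C content) to 1.16. The opposite arm, miR-471-3p, differed less: 894 ± 223, 937 ± 136 and 659 ± 154 CPM in spermatocytes and 975 ± 191, 901 ± 111 and 877 ± 287 CPM in round spermatids, in the order Ago413+/+, Ago413+/- and Ago413-/-.

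In Ago413+/- none of the 9 changed in either cell type, as none of all miRNAs did (background 0.0% of 404 and 0.0% of 426, with 13 and 68 at an unadjusted p under 0.05). Besides miR-471-5p, the value farthest from 0 was that of miR-470-5p in round spermatids, at 13682 ± 3515 CPM against 24129 ± 8176 CPM (log2 fold change -0.82, SE 0.27, edgeR adjusted p = 0.192).

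In round spermatids miR-463-5p read 494, 745, 337 and 555 CPM in Ago413+/+, 680.0, 722.5, 724 and 687 CPM in Ago413+/-, and 856, 881, 855 and 786.5 CPM in Ago413-/-. The Ago413-/- libraries lay above all Ago413+/+ libraries (log2 fold change 0.66, SE 0.23, edgeR adjusted p = 0.0511), and with the offset on G and C content the value was 0.10 (adjusted p = 0.810). In spermatocytes it was at 611 ± 141 CPM in wild type and at 581 ± 221 CPM in Ago413-/- (log2 fold change -0.07, SE 0.33). miR-463-3p stood at 259 ± 51 and 177 ± 48 CPM in spermatocytes (log2 fold change -0.54, SE 0.42, adjusted p = 0.481) and at 241 ± 78 and 284 ± 50 CPM in round spermatids (0.24, SE 0.30, adjusted p = 0.577).

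Between the cell types within Ago413-/-, none of the 9 passed, where 4.89% of 450 miRNAs changed. miR-201-5p came nearest, at 388 ± 273 CPM in spermatocytes and 1253 ± 399 CPM in round spermatids (log2 fold change 1.61, SE 0.50, edgeR adjusted p = 0.0622), followed by miR-471-5p (0.96, SE 0.33, adjusted p = 0.0761). These CPM were scaled within each cell type, while the fold changes came from the fit of 24 libraries. Leaving out Ago413-/- spermatocytes replicate 1 brought miR-201-5p (2.09) and miR-471-5p past the threshold, where 62 of 448 miRNAs were called. Without Ago413-/- spermatocytes replicate 2 the edgeR adjusted p was 0.124 for miR-201-5p and 0.168 for miR-471-5p. Without Ago413-/- round spermatids replicate 1 it was 0.155 and 0.208. In 11 of 12 cases the spermatocyte and round spermatid libraries of one genotype and replicate number carry consecutive library numbers. With the replicate number as a block, miR-201-5p was at 1.88 (edgeR adjusted p = 0.0196) and was called.

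As a share of all counts, the 10 miRNAs rose in Ago413-/- spermatocytes to 5.30% ± 1.95, by 2.41 percentage points over Ago413+/+ (exact permutation test, two-sided, p = 0.0286, the smallest possible), or by 1.44 without Ago413-/- replicate 2. The 4 libraries were at 4.54%, 8.21%, 4.32% and 4.11%, all above the Ago413+/+ range of 2.08% to 3.78%. The increase lay in miR-470-5p: without it the other 9 held 1.02% ± 0.28 in Ago413+/+ and 0.805% ± 0.268 in Ago413-/-, a difference of -0.21 percentage points (exact p = 0.286). In round spermatids the 10 miRNAs held 4.05% ± 0.56 in Ago413-/- (difference 0.65 percentage points, exact p = 0.314).

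Across the 24 libraries the 9 miRNAs did not follow one pattern. Pearson's r of log2 CPM, given as a description over libraries that differ in genotype, cell type, depth and base composition, was -0.90 between miR-470-5p and miR-471-5p, -0.77 between the arms of miR-470, 0.23 between those of miR-463, 0.27 between those of miR-471 and 0.75 between those of miR-201. miR-201-5p and miR-547-3p, neighbours on the chromosome, had an r of 0.53. Among all 450 miRNAs, the one most like each member was let-7c-5p for miR-470-5p (0.93), miR-871-5p of the same family for miR-470-3p (0.87), miR-202-5p for miR-463-5p (0.86), miR-362-3p for miR-463-3p (0.78), miR-499-5p for miR-471-5p (0.88), miR-501-3p for miR-471-3p (0.69), miR-34a-5p for miR-201-5p (0.93), miR-322-5p for miR-201-3p (0.88) and miR-181b-5p for miR-547-3p (0.88). Of the 9 nearest, 1 belonged to the miR-506 family, which had 26 other members among the 450 miRNAs of the fit.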

How the data were processed

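Libraries were made with the NEBNext Small RNA kit. After trimming with TrimGalore, the authors assigned reads to miRBase mature sequences with miRDeep2. The values deposited are raw counts, not normalised, of 1978 mature miRNAs in 24 libraries. All 24 columns were used, and no library was left out of the reported fits. In the submitters' processing notes Trim Galore is the tool named.

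A miRNA needed 10 counts or more in 3 libraries of a fit, which left 404 for spermatocytes, 426 for round spermatids and 450 for the fit of 24 libraries. The quasi-likelihood test of edgeR 4.0.16 (R 4.3.3) was fitted with TMM to the 3 genotypes of a cell type, and to 6 groups for the comparisons between cell types; p-values were adjusted over all miRNAs. Standard errors were recovered from the fold change and the F statistic. Arm ratios and shares were compared by exact two-sided permutation tests. Arm ratio p-values adjusted over the described hairpins alone had been planned and are not given; adjustment over all hairpins and limma 3.58.1 over all hairpins were added, as was the offset on G and C content (loess, span 0.75, prior count 5), for which 373 of 450 miRNAs had a sequence. The alternatives include DESeq2 1.42.0. The edgeR fits were checked on simulated counts with the same spread for all miRNAs and no trend with G and C content. limma was checked on simulated normal values. No such check is given for the permutation tests or DESeq2. Intervals and limits cover counting error only, since PCR reads without molecular identifiers are not independent molecules.

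The members, the lists and most settings were chosen with earlier results of these data known. All 10 members are named; likeness was ranked by Pearson's r of log2 CPM (prior count 2). Positions, sequences and neighbours are from RefSeq (GRCm38.p6) and GENCODE of the same build; all 10 members matched. Same-numbered libraries were to count as paired where their deviations from the group means correlated at r over 0.1 in every pair of 2 groups. No 2 groups met this, so the replicate numbers were not used as a pairing.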

Additional observations from a re-analysis of the deposited data

Results flagged for a closer look

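In 9 of 84 groups of 4 libraries, where chance gives about 1 in 20 or 4.2, a library stood apart from the other three by Dixon's criterion. In spermatocytes, Ago413-/- replicate 2 had 95162 CPM of miR-470-5p (33657 to 40859 in the others) and 8.21% of its counts in the 10 miRNAs (4.11% to 4.54%), Ago413+/- replicate 4 had 39605 CPM of miR-470-5p (10296 to 12801), and Ago413+/+ replicate 2 had 1227 CPM of miR-471-3p (769 to 798). In Ago413+/+ round spermatids, replicate 1 had 357 CPM of miR-463-3p (193 to 207), replicate 4 had 1621 CPM of miR-471-5p (1127 to 1187) and replicate 2 had 6158 CPM of miR-547-3p (3967 to 4200). In Ago413+/- round spermatids, replicate 1 had 1.71% of its counts in the 10 miRNAs (2.66% to 2.70%), and 1 library had a miR-201 log2 arm ratio of 5.33 (4.81 to 4.89). What set these libraries apart was not tested.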

How the results depend on the processing

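The number of the 9 miRNAs changed in Ago413-/- spermatocytes, 0, became 3 with DESeq2 (61 of all 404 called), 2 with no filter on low counts (miR-470-5p and miR-471-5p; 55 of 1059) and 1 both with the 2 genotypes alone (14 of 382) and with the offset on G and C content (24 of 404), miR-470-5p each; leaving out a library gave 0. In Ago413-/- round spermatids, 3 became 1 with library totals (miR-470-3p; 68 of 426 in all), with at least 10 counts in every library (miR-201-5p, of 7 tested; 42 of 265) and with the G and C offset (miR-470-3p; 56 of 426), and 1 to 3 leaving out a library. Library totals moved the median of all miRNAs there by -0.23 and TMM without the family by -0.20; in spermatocytes library totals moved it by -0.19. In Ago413+/- round spermatids, 0 became 1 with DESeq2 (miR-471-5p; 6 of 426). Between cell types in Ago413-/-, 0 became 1 with DESeq2 (49 of 450) or no filter (43 of 1224), 2 with at least 10 counts in every library (25 of 196), and 0 to 2 leaving out a library. With the replicate block it became 1 (miR-201-5p; 17 of 450), and no other count moved; same-numbered libraries of the 2 cell types correlated at -0.16 to 0.37 in Ago413+/+ (3 of 4 pairs over 0.1), 0.02 to 0.42 in Ago413+/- (2 of 4) and -0.15 to 0.28 in Ago413-/- (1 of 4). The single hairpin with a changed arm ratio in each cell type became 0 after adjustment over all hairpins, 0 in spermatocytes with limma, and 0 in each under exact p below 0.05 leaving out a library, since 4 against 3 cannot go below p = 0.0571. Hairpins whose groups did not overlap, another rule, then numbered 1 to 3 in spermatocytes, 1 to 2 in round spermatids and 0 to 1 between the cell types, which says nothing of stability. The members' share differed by 1.44 to 2.81 percentage points in spermatocytes, 0.304 to 1.09 in round spermatids and 0.0754 to 0.866 between the cell types leaving out a library, and by -0.21 without miR-470-5p in spermatocytes. Of 1138 log2 fold changes under the alternatives, 15 lost and 15 gained a call and 84 changed sign, none of them past the threshold; of 139 arm ratios 12 changed sign. The causes were not tested. Depth limits the minor arms miR-470-3p and miR-201-3p, with at most 92 and 26 counts in a library.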
